A study of Mus musculus with 8 samples.

Results

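The complement and coagulation genes are 41 genes of the cascades that act in blood plasma, chosen by symbol from the 24532 genes of the series. They split by source into 37 genes whose plasma protein is made mainly by hepatocytes and 4 that macrophages and other myeloid cells make, namely the 3 chains of C1q (C1qa, C1qb and C1qc) and properdin (Cfp). The rule for them uses symbols and no measured value, but they were chosen with earlier results of these data known. All 41 are listed in each of the 8 libraries.

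Poly(A) RNA was sequenced from liver and subcutaneous fat of male C57BL/6 mice, with 2 WT and 2 MKRN1-null libraries for each tissue. Mice of both genotypes were fed a high-fat diet (HFD) for 19 weeks from 6 weeks of age, and their labelled age was 24 weeks, so no chow-fed group enters any comparison. The labelled age and the labelled feeding time differ by 1 week, and the study's methods give another feeding time for its HFD experiments, so the time on the diet is uncertain. The MKRN1-null mice carry a germline null allele of the E3 ubiquitin ligase MKRN1, had been backcrossed to C57BL/6, and were bred together with their WT littermates. The question was how the transcripts of the 2 cascades differ between the genotypes in each tissue, and whether genes of hepatocyte and of macrophage origin do so alike.

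Complement is a chain of plasma proteases and adaptors that tags surfaces with C3 fragments and ends in a pore, the membrane attack complex. It is started by C1q bound to antibody, by mannose-binding lectins bound to sugars, or by the alternative pathway, which properdin stabilises. Coagulation is a second protease chain that ends with thrombin cutting fibrinogen to fibrin, and antithrombin, protein C and plasmin limit or dissolve the clot. The liver is the main source of nearly all of these proteins, whereas C1q is a product of tissue macrophages.

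Levels are given in FPKM, fragments per kilobase of transcript scaled to the depth of the library, so that genes can be compared per length. A difference is the mean log2(FPKM + 1) of the MKRN1-null libraries minus that of the WT libraries, with its standard error (SE, n = 2 against 2). It was called at a Benjamini-Hochberg adjusted p below 0.05 in limma over all genes tested in the tissue, or at the study thresholds, the study's limits of 0.05 for p and 0.58 for the size of the log2 difference, here with limma's unadjusted p in place of the study's own permutation p. The SE and p use limma's moderated variance. In it the spread between 2 libraries a group is drawn toward the trend of spread with level over all genes tested. The targeted gene behaved as labelled, with Mkrn1 at 9.42 and 10.1 FPKM in WT liver against 2.86 and 2.21 in MKRN1-null liver, and at 16.8 and 19.3 against 4.58 and 2.90 in fat. One library stood apart. In MKRN1-null fat 2, 10 skeletal muscle markers took 18.1% of all FPKM, against at most 0.0547% in the other fat libraries, so the value of that library is given for each gene in fat, and the main differences also without it. Without it the MKRN1-null arm is 1 library, assumed to vary like the WT pair.

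All 37 hepatocyte-made members exceeded 10 FPKM as a mean of the WT livers, and 4 members exceeded 1000 FPKM. The most abundant was Fgb, the fibrinogen beta chain, and the scarcest was Cfp, with a WT mean of 11.6 FPKM. Together the 41 genes took 2.58% and 2.46% of all FPKM in the WT livers and 2.82% and 2.98% in the MKRN1-null livers. The 37 hepatocyte-made genes summed to 13717 and 13601 FPKM in WT against 16131 and 16980 in MKRN1-null liver, and the 4 macrophage-made genes to 195 and 131 against 86.5 and 93.9. The sums of the 2 sources thus differed in opposite directions in the liver, and in both the groups do not overlap.

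**Figure D1:**
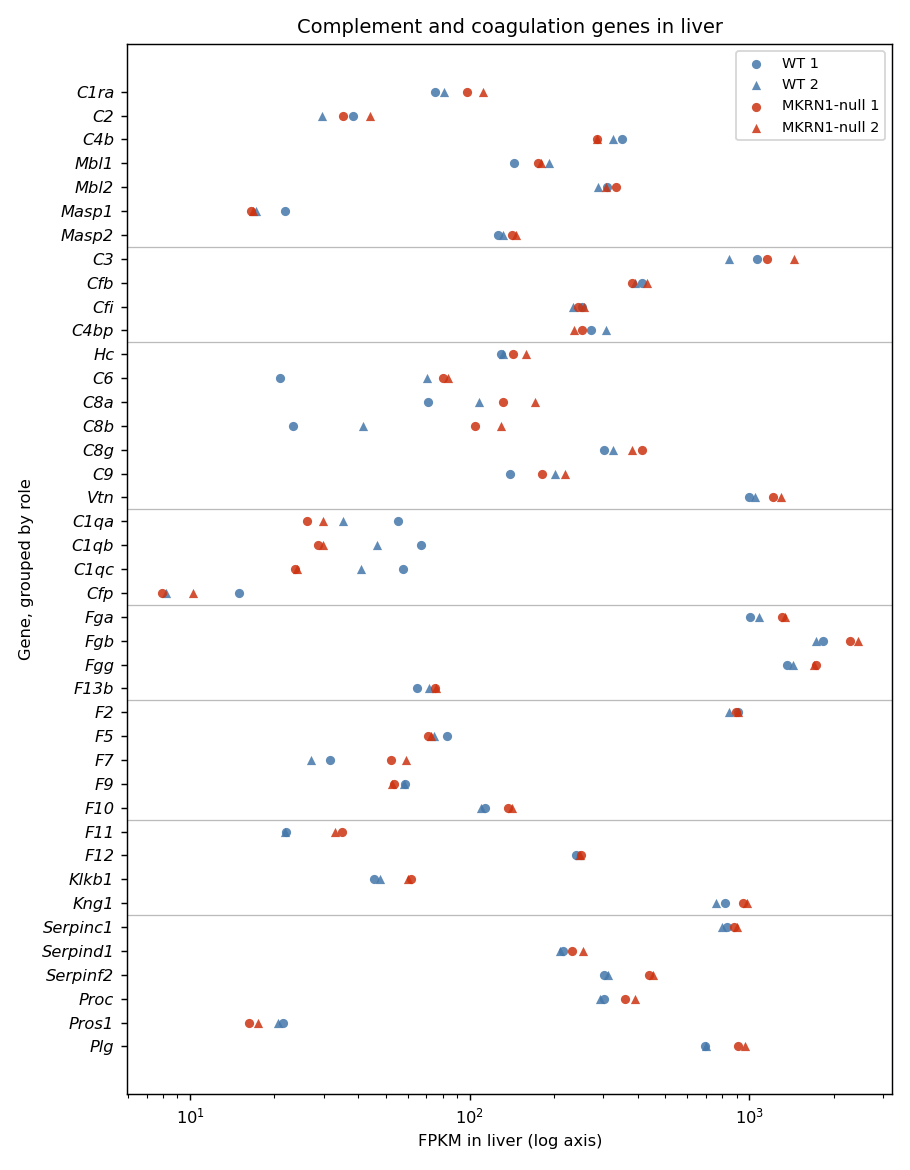
FPKM in liver on a log axis (horizontal) of the 41 genes, grouped by role (vertical), with WT libraries in blue, MKRN1-null libraries in red, circles for library 1 and triangles for library 2. Most hepatocyte-made genes have both red points to the right of both blue points, C8b and F7 by the widest margins, and the 3 C1q chains have them to the left.

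All 41 members passed the filter on low values in liver. Of these, 7 rose at the adjusted threshold (17.1%), where 2.51% of the 10822 genes tested rose, and 2 fell (4.88%), where 16.9% of all genes fell. At the study thresholds 4 rose against a background of 2.25%, and 3 fell against a background of 13.4%. A permutation p of the study's kind, combined by Stouffer's method, was also computed, here on FPKM where the study used read counts. By it 5 members were higher at these limits (2.63% of all genes), C6 being added, and 3 lower (13.8% of all genes). Both MKRN1-null livers lay above both WT livers for 24 members, which 11.8% of all genes did, and below both for 9, which 57.5% of all genes did. The 7 genes that rose were all hepatocyte-made (C1ra, C8b, F7, F11, Klkb1, Serpinf2 and Plg), and both that fell were C1q chains. The median log2 difference was 0.24 over the hepatocyte-made and −0.78 over the macrophage-made members, where the median of all genes tested was −0.17. Median-of-ratios scaling moved that overall median to 0.05. By it 17 members rose, among them Fga, Fgb and Fgg, and 0 fell, where 565 of all genes rose and 757 fell. Without either MKRN1-null liver the adjusted threshold was passed by 0 members, against 3 rising without WT liver 1 and 6 without WT liver 2. Over all genes, the number of rises fell from 272 to 62 without MKRN1-null liver 1 and to 6 without MKRN1-null liver 2.

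**Figure D2:**
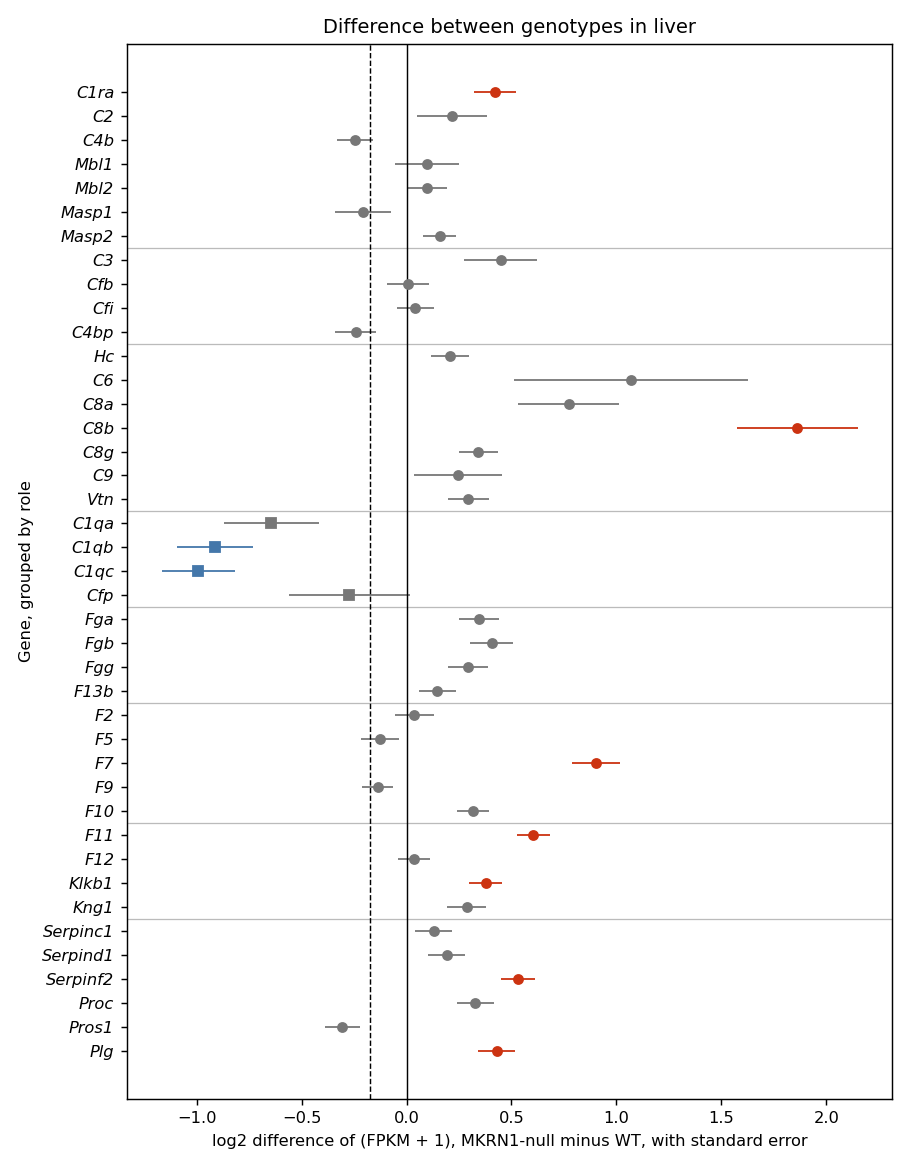
Log2 difference of FPKM + 1 between MKRN1-null and WT liver (horizontal, bars are standard errors) of the 41 genes grouped by role (vertical), with the 7 genes that rose at the adjusted threshold in red, the 2 that fell in blue and the rest in grey, squares for macrophage-made genes, a solid line at 0 and a dashed line at the median of all genes, −0.17. C8b lies farthest to the right at 1.86 and C1qc farthest to the left at −0.99.

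Marker levels of several cell types differed between the same livers, where 2.51% of all genes rose and 16.9% fell at the adjusted threshold. Of 9 hepatocyte markers 0 rose and 1 fell, and their summed level was 70202 to 78060 FPKM in WT and 79686 to 80296 in MKRN1-null liver. Of 9 fibroblast and stellate cell markers 6 fell, with sums of 177 to 242 against 67.0 to 70.8 FPKM, and of 5 cholangiocyte markers 4 fell. Epcam, one of these, fell from 4.25 and 2.81 to 0.444 and 0.545 FPKM, and Spp1, which macrophages also make and which holds most of that list's sum, from 242 and 201 to 34.4 and 29.7. No marker of these lists was at 0 in all livers, and their part in the values of the members was not tested. In whole tissue, fewer cells of a type and less RNA per cell cannot be told apart.

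The upstream sequences of the genes on which the liver results turn are shown because neighbouring genes and genes that moved together may share letters there. RefSeq windows on GRCm38.p6, cut to the 250 bases before the transcript start, were found for 32 members (29 hepatocyte-made and 3 macrophage-made). Short motifs of factors known to drive liver or myeloid genes were searched on both strands (TATAAA on the sense strand alone) and are printed in capitals. They were the HNF1 consensus, CAAAGTCCA and CAAAGGTCA (2 HNF4 forms), TTGCNNAA (C/EBP), CTGGGAA (the type II element of IL-6 responses) and GAGGAAG (PU.1, a myeloid factor).

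The first set holds the 3 fibrinogen chains, neighbours on chromosome 3 that moved by similar amounts. Their windows are Fga (chr3:83025903-83026152, + strand), Fgb (chr3:83049864-83050113, - strand) and Fgg (chr3:83007474-83007723, + strand). Capitals mark C/EBP letters in Fga and IL-6 type II letters in Fgg. In Fgb they mark, from left to right, PU.1, IL-6 type II and C/EBP letters, which do not overlap.
Fga: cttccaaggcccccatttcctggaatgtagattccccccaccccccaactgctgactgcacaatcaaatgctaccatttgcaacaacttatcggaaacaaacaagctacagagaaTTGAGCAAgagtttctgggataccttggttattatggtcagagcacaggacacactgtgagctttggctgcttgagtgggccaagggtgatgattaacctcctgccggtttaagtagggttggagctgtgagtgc
Fgb: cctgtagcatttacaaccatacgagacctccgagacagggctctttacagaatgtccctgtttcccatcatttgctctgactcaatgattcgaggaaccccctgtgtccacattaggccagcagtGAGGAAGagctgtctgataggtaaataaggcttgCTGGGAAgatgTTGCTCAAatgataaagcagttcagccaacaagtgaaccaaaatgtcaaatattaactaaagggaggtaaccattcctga
Fgg: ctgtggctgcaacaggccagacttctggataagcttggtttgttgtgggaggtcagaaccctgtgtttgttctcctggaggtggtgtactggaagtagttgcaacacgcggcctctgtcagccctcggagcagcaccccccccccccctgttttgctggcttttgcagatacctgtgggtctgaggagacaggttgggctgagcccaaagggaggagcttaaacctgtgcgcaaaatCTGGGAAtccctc

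The second set holds C8b (chr4:104766067-104766316, + strand) and F7 (chr8:13025784-13026033, + strand), the 2 largest rises, and C1qc (chr4:136892915-136893164, - strand), the largest fall. Capitals mark an HNF4 form in F7, from −34 to −26 relative to the start, and PU.1 letters in C1qc. No motif searched lies in the C8b window.
C8b: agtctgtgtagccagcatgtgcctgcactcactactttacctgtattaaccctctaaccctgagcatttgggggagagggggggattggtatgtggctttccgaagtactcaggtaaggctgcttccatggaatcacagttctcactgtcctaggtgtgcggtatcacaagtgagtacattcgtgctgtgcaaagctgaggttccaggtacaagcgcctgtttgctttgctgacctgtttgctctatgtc
F7: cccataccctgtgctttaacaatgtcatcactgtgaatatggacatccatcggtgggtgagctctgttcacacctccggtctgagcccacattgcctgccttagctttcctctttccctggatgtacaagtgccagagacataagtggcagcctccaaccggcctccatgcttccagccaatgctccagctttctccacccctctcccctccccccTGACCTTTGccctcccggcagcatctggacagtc
C1qc: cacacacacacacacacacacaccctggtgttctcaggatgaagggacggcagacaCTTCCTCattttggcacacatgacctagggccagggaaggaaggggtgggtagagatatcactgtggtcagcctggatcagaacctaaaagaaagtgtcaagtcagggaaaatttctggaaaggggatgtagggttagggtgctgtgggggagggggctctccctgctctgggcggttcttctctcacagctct

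Read against all 27025 promoter windows of the same length, C/EBP letters occurred in 7 of the 29 hepatocyte-made windows (24.1%, against 9.55% of all), namely those of C3, C9, Fga, Fgb, F9, F11 and Klkb1. The IL-6 type II letters occurred in 5 (17.2% against 9.08%), namely C1ra, Masp2, Fgb, Fgg and F9. HNF1 letters occurred in 3 (10.3% against 0.411%), those of C4bp, Hc and F13b, and none of these 3 genes passed the adjusted threshold. The HNF4 form of F7 was in 1 window (3.45% against 0.407%) and the other HNF4 form in 0 (0.381% of all). PU.1 letters were in Fgb and C1qc (10.4% of all) and TATAAA in Hc and Vtn (8.12% of all). A match of letters is a description and not a binding site. Of the 6 genes that rose in liver and have a window, C1ra, F7, F11 and Klkb1 hold a motif and C8b and Serpinf2 do not. Many hepatocyte-made members that did not rise hold one too. The share of all windows with any of the motifs was not computed, so this count ties no motif to a rise. No window was used for C2, C4b, Masp1, Cfb, Cfi, C1qa, Kng1, Plg and Proc.

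Of 7 terminal complement members 1, C8b, rose at the adjusted threshold (2.51% of all genes), and its rise was the largest of the 7 called rises. All 7 members of this group had a positive difference, as 23.7% of all genes did, and in 6 of them both MKRN1-null livers lay above both WT livers, as in 11.8% of all genes. C8b encodes the beta chain of C8, the component that inserts the growing attack complex into the membrane, and lies at chr4:104766317-104804548 on mm10. It stood at 23.4 and 41.5 FPKM in WT liver and at 104 and 129 FPKM in MKRN1-null liver. Its log2 difference was 1.86 (SE 0.29, adjusted p = 0.0222, limma), a 3.64-fold rise, and it was 1.46 without WT liver 1 and 2.26 without WT liver 2. C8a, the alpha chain encoded 11.1 kb away on the opposite strand, stood at 71.2 and 108 FPKM in WT against 132 and 172 in MKRN1-null liver. Its difference of 0.77 (SE 0.24, adjusted p = 0.0828, limma) met the study thresholds but missed the adjusted one. C8g, the gamma chain from another chromosome, was at 301 and 324 against 412 and 381 FPKM (0.34, SE 0.09, adjusted p = 0.0634, limma).

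The 3 chains of C8 did not keep a fixed ratio. There were 0.328 and 0.385 C8b per C8a in the WT livers and 0.790 and 0.752 in the MKRN1-null livers, with no overlap, so that the beta chain approached the level of the alpha chain. C8g per C8a was 4.23 and 3.002 in WT against 3.12 and 2.22, which overlap. With 2 against 2 libraries no exact test of a single ratio can reach 0.05, and these ratios carry no p.

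C6, which joins C5b to begin the terminal complex, depended on 1 library. It was at 20.9 FPKM in WT liver 1 but 70.5 in WT liver 2, against 80.4 and 83.8 in MKRN1-null liver. The difference of 1.07 (SE 0.56, adjusted p = 0.22, limma) was 0.22 without WT liver 1 and 1.92 without WT liver 2. The largest ratio between the 2 WT livers among the members was that of C6 (3.37), whereas the median member differed by a ratio of 1.08. Hc, the mouse gene of C5, was at 129 and 131 against 143 and 159 FPKM, and Vtn, encoding vitronectin, which blocks the soluble complex, at 998 and 1051 against 1218 and 1296. Their differences of 0.21 and 0.30 did not pass either threshold. C9, the pore-forming unit, was at 140 and 202 against 181 and 220 FPKM, and the groups overlap.

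The central complement genes moved less. C3, on which all 3 starting routes converge, was at 1064 and 844 FPKM in WT against 1158 and 1446 in MKRN1-null liver. The groups do not overlap, but the difference of 0.45 (SE 0.17, adjusted p = 0.128, limma) missed both thresholds. Cfb, its partner in the alternative convertase, was at 413 and 391 against 380 and 429 FPKM, and Cfi, the protease that destroys C3b, at 251 and 233 against 243 and 255. C3 per Cfb was 2.58 and 2.16 in WT against 3.04 and 3.37 in MKRN1-null liver. C4bp, the cofactor that restrains the classical convertase, was at 272 and 306 against 252 and 236 FPKM, a difference of −0.24 (adjusted p = 0.143, limma) that lies close to the median of all genes.

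Among the starting components, C1ra, a protease of the C1 complex, rose from 75.0 and 80.6 to 98.0 and 111 FPKM (0.42, SE 0.10, adjusted p = 0.0485, limma). Its near-identical neighbour C1rb was at 18.4 FPKM in WT liver 1, listed at 0 in WT liver 2 and at 23.6 and 27.0 in MKRN1-null liver, so the split of reads between the 2 is uncertain. Summed, they were at 93.4 and 80.6 in WT against 122 and 138 FPKM in MKRN1-null liver, a difference of 0.57. C4b, the source of the classical convertase's C4 part, was at 351 and 324 against 285 and 284 FPKM (−0.24, adjusted p = 0.108, limma). Its close copy C4a was at 11.1 and 20.0 against 23.6 and 36.0, and the sum of the pair differed by −0.17. C2, which completes that convertase, was at 38.1 and 29.7 against 35.3 and 43.8 FPKM, and the groups overlap.

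The 4 members of the lectin route changed little. Mbl1 and Mbl2, the mannose-binding lectins, were at 144 and 192 against 176 and 180 FPKM and at 311 and 286 against 333 and 307. Masp1 was at 21.9 and 17.1 against 16.5 and 16.8 FPKM and Masp2, the lectin route's C4-cleaving protease, at 126 and 132 against 142 and 146. None of these 4 passed a threshold (smallest adjusted p = 0.203, limma, for Masp2). Most of the Masp2 signal came from its short transcript of 744 exon bases, which took 70.0% and 74.0% of the gene's FPKM in WT against 75.1% and 74.8% in MKRN1-null liver. That transcript encodes the non-proteolytic fragment of the gene, and the full-length one stood at 37.9 and 34.3 against 35.3 and 36.8 FPKM.

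The macrophage-made members ran the other way. C1qc, whose chain forms the C1q trimer together with those of C1qa and C1qb, was at 57.6 and 40.7 FPKM in WT and fell to 23.7 and 24.1 in MKRN1-null liver (−0.99, SE 0.17, adjusted p = 0.0277, limma). C1qb fell from 67.0 and 46.7 to 28.7 and 29.8 FPKM (−0.91, SE 0.18, adjusted p = 0.0347, limma). C1qa was at 55.5 and 35.3 against 26.2 and 29.8 FPKM (−0.65, SE 0.23, adjusted p = 0.106, limma) and met the study thresholds alone. In all 3 chains both MKRN1-null livers lay below both WT livers, as in 57.5% of all genes. The calls of C1qb and C1qc were lost by median-of-ratios scaling (adjusted p = 0.069 and 0.0502, limma) and by quantile normalization, with differences of −0.66 to −0.81. Cfp, by contrast, was at 14.9 and 8.19 against 7.92 and 10.2 FPKM, and its groups overlap.

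The 3 C1q genes lie within 1 cluster on chromosome 4, with gaps of 3.0 and 3.6 kb between them. Their levels were close to each other in every liver. There were 1.21 and 1.32 C1qb per C1qa in WT against 1.10 and 0.998 in MKRN1-null liver, and 1.04 and 1.15 C1qc per C1qa against 0.903 and 0.806. Both ratios were thus lower in both MKRN1-null livers.

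C1q moved together with general macrophage markers. Of 10 such markers 7 fell in liver, where 16.9% of all genes fell. The summed level of the 10 was 216 and 160 FPKM in WT against 75.2 and 78.3 in MKRN1-null liver. Lyz2, encoding lysozyme, fell from 89.2 and 63.8 to 28.7 and 29.5 FPKM, and Ctss, a lysosomal protease, from 44.4 and 37.8 to 12.99 and 13.6. Markers of Kupffer cells, the resident liver macrophages, did not fall as a set. Of 8 such markers 0 were called in either direction, and their sum was 189 and 123 FPKM in WT against 134 and 146 in MKRN1-null liver. The 2 WT livers lay far apart in Clec4f (42.08 and 11.4 FPKM), Timd4, Marco and Folr2, which limits what could be called. Groups did not overlap for 1 marker in each direction. Cd5l was lower, at 60.02 and 35.12 against 29.56 and 28.36 FPKM, and Cd163 was higher. In WT liver 2, Id3 and Slc40a1 held 42.0 and 30.64 FPKM of the sum, so it does not stand for all 8 alike. The 3 C1q chains per macrophage marker sum were 0.834 and 0.769 in WT and 1.05 and 1.07 in MKRN1-null liver, and per Kupffer marker sum 0.951 and 0.995 against 0.589 and 0.575. Relative to the macrophage markers C1q was thus higher in both MKRN1-null livers, and relative to the Kupffer markers lower. No marker of either list was at 0 in all livers, and their part in the C1q result was not tested. In stained liver sections, the study reported no significant difference between the genotypes in cells positive for a macrophage antigen. The study does not state whether those sections came from the sequenced mice. Macrophage number was not tested here.

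**Figure D3:**
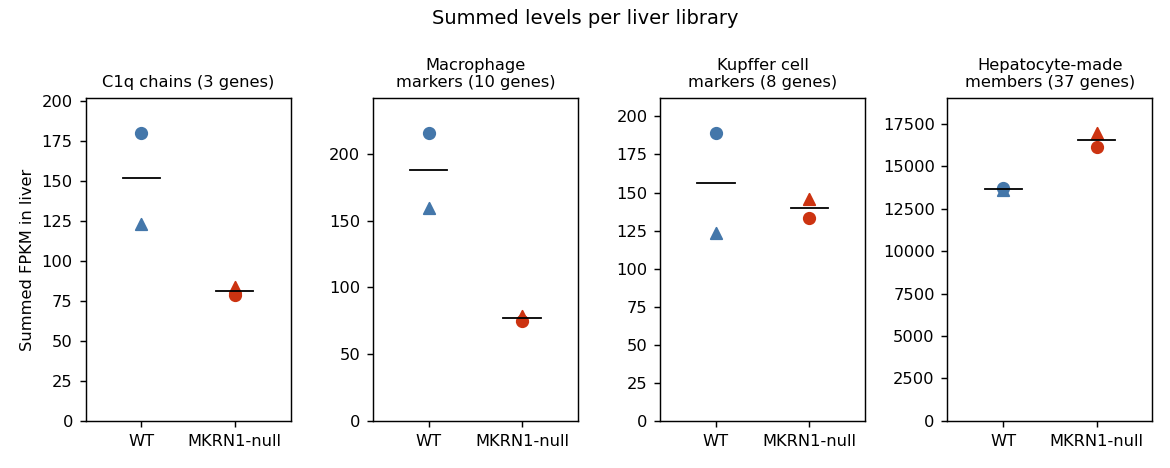
Summed FPKM (vertical, from 0) per liver library of the 3 C1q chains, 10 macrophage markers, 8 Kupffer cell markers and 37 hepatocyte-made members, with circles for library 1, triangles for library 2 and a bar at the group mean. C1q and macrophage marker sums are lower in both MKRN1-null livers, Kupffer marker sums overlap, and the hepatocyte-made sum is higher in both MKRN1-null livers.

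Fibrinogen, the substrate of the clot, was higher in both MKRN1-null livers than in both WT livers for each chain, as 11.8% of all genes were. Fga was at 1006 and 1080 FPKM in WT against 1311 and 1338 in MKRN1-null liver, Fgb at 1838 and 1736 against 2299 and 2438, and Fgg at 1366 and 1429 against 1724 and 1698. The differences were 0.34 (SE 0.10, adjusted p = 0.0649), 0.41 (SE 0.10, adjusted p = 0.0544) and 0.29 (SE 0.09, adjusted p = 0.0896) in limma, each short of the adjusted threshold. By quantile normalization, which gives every library the same distribution of values, they were 0.02, 0.03 and 0.07.

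The proportions of the chains were close in every liver. There were 1.83 and 1.61 Fgb per Fga in WT against 1.75 and 1.82 in MKRN1-null liver, and 1.36 and 1.32 Fgg per Fga against 1.32 and 1.27. Fga and Fgb are 8.6 kb apart on opposite strands. F13b, the carrier subunit of the fibrin cross-linking enzyme, was at 64.7 and 71.6 against 75.3 and 75.6 FPKM (0.15, adjusted p = 0.27, limma).

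**Figure D4:**
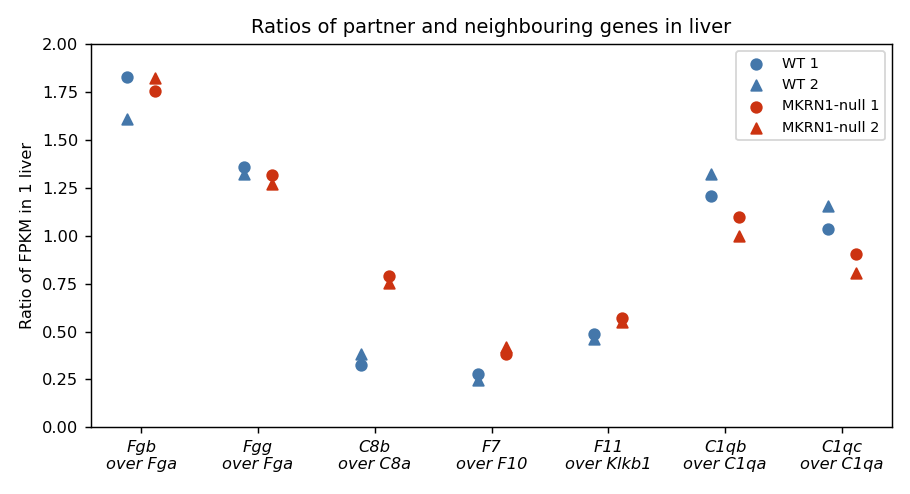
Ratio of FPKM of one gene to a partner chain or neighbouring gene (vertical, from 0) in each liver, with WT libraries in blue, MKRN1-null libraries in red, circles for library 1 and triangles for library 2. The fibrinogen ratios overlap for Fgb over Fga, whereas C8b over C8a is 0.328 and 0.385 in WT and 0.790 and 0.752 in MKRN1-null liver.

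Among the vitamin K-dependent clotting factors and factor V, F7 rose most. Factor VII starts clotting when it binds tissue factor, and F7 lies directly before F10 on chromosome 8 with a gap of 1.5 kb. F7 rose from 31.6 and 27.2 to 52.1 and 59.3 FPKM (0.90, SE 0.12, adjusted p = 0.0172, limma), a 1.87-fold rise. F10, the factor that F7 activates, was at 113 and 110 against 137 and 141 FPKM (0.32, SE 0.08, adjusted p = 0.0506, limma). F7 per F10 was 0.279 and 0.247 in WT against 0.380 and 0.420 in MKRN1-null liver. The other 3 genes of the group had small differences. F2, encoding prothrombin, was at 910 and 846 against 893 and 907 FPKM, F9 at 58.7 and 58.3 against 53.5 and 52.7, and F5, the cofactor of factor X, at 83.0 and 74.5 against 70.8 and 72.9.

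In the contact system, which starts clotting and kinin release on charged surfaces, 2 of 4 genes rose (2.51% of all genes). All 4 had both MKRN1-null livers above both WT livers, as 11.8% of all genes did, F12 by a small margin. F11 rose from 22.1 and 21.9 to 35.0 and 33.0 FPKM (0.61, SE 0.08, adjusted p = 0.0176, limma). Klkb1, encoding plasma prekallikrein, is the paralogue of F11 and lies 4.7 kb from it on the same strand. It rose from 45.4 and 47.7 to 61.4 and 60.0 FPKM (0.38, SE 0.08, adjusted p = 0.037, limma). Kng1, encoding kininogen, was at 821 and 760 against 949 and 978 FPKM (0.29, adjusted p = 0.0933, limma), and together with its close copy Kng2 the difference was 0.26. F12, the factor that starts the contact reaction, was at 240 and 246 against 250 and 249 FPKM, a difference of 0.04.

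The 6 inhibitors of clotting and genes of clot removal gave 2 rises (2.51% of all genes). Plg, encoding plasminogen, rose from 693 and 697 to 908 and 965 FPKM (0.43, SE 0.09, adjusted p = 0.0386, limma). Serpinf2, encoding antiplasmin, the main inhibitor of plasmin, rose from 302 and 311 to 436 and 451 FPKM (0.53, SE 0.08, adjusted p = 0.0222, limma). The enzyme precursor and its inhibitor thus moved in the same direction. Proc, encoding protein C, was at 302 and 293 against 360 and 388 FPKM (0.33, adjusted p = 0.0607, limma), while Pros1, encoding its cofactor protein S, was at 21.5 and 20.6 against 16.2 and 17.5 (−0.31, adjusted p = 0.0648, limma). Proc per Pros1 was 14.0 and 14.3 in WT against 22.1 and 22.3 in MKRN1-null liver. Serpinc1, encoding antithrombin, was at 833 and 797 against 879 and 906 FPKM, and Serpind1, encoding heparin cofactor II, at 215 and 211 against 232 and 255.

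Other genes of the same pathways were taken from separate lists. Of 16 further plasma components and lectins of complement tested in liver 2 rose (2.51% of all genes) and 1 fell (16.9% of all genes). The 1 that fell was the lectin Colec11, named after its values were seen. It was at 46.7 and 35.6 FPKM in WT against 17.85 and 21.8 in MKRN1-null liver (−1.01, adjusted p = 0.0251, limma). Of 8 receptors and membrane regulators 0 rose (2.51% of all genes) and 1 fell (16.9% of all genes). Of 17 further plasma components of coagulation 5 rose and 1 fell, 4 of the rises being copies of Serpina1 (a, c, d and e), named after their values were seen, and of 13 vessel wall, fibrinolysis and receptor genes 1 rose (2.51% of all genes) and 7 fell (16.9% of all genes). Of 8 endothelial markers 1 fell at the adjusted threshold and 5 were lower at the study thresholds, where 13.4% of all genes were. Their sums were 103 and 63.3 FPKM in WT against 50.2 and 64.6 in MKRN1-null liver. Of 3 adipocyte markers tested in liver 2 fell, with sums over the list of 153 and 138 against 37.7 and 23.2 FPKM. The 2 were Cidec (97.1 and 86.5 against 14.25 and 2.69 FPKM) and Fabp4 (47.3 and 44.6 against 14.7 and 12.8 FPKM). Adipoq, Plin1, Lep and Retn were below 1 FPKM in every liver, and the groups of Lipe overlap. The adipocyte sums thus rest on Cidec and Fabp4 and need not mark adipocytes. The part of the cells that hold these markers in the vessel wall values was not tested. Of 5 genes of the vitamin K cycle and factor secretion 0 rose and 1 fell.

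Several genes of the vessel wall and fibrinolysis list act on plasminogen or thrombin at cell surfaces. Anxa2, a cell surface receptor of plasminogen, was at 91.1 and 101 FPKM in WT and fell to 13.2 and 9.05 in MKRN1-null liver (−3.02, SE 0.18, adjusted p = 0.00779, limma). Its binding partner S100a10 fell from 205 and 278 to 101 and 64.2 FPKM (−1.56, adjusted p = 0.0254, limma). Plat, the tissue plasminogen activator, fell from 1.67 and 1.40 to 0.176 and 0.108 FPKM (−1.15, adjusted p = 0.013, limma). Serpine2, an inhibitor of thrombin and plasminogen activators, rose from 4.34 and 3.38 to 10.9 and 12.4 FPKM (1.39, adjusted p = 0.0128, limma).

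The thrombin receptor F2r fell from 15.0 and 15.7 to 6.74 and 6.38 FPKM (−1.11, adjusted p = 0.00976, limma). Gas6, the vitamin K-dependent relative of protein S, fell from 76.4 and 47.1 to 16.0 and 13.8 FPKM (−1.94, adjusted p = 0.0168, limma). Itgax, a complement receptor chain of myeloid cells, fell from 1.96 and 1.64 to 0.237 and 0.145 FPKM (−1.23, adjusted p = 0.0123, limma). Serpina1e, one of the near-identical copies of the antitrypsin gene between which reads may be split, rose from 551 and 981 to 3585 and 4777 FPKM (2.49, adjusted p = 0.0169, limma). F8, the cofactor made by endothelium, was at 2.19 and 1.57 against 0.964 and 1.04 FPKM and did not pass the adjusted threshold.

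Of 20 transcription factors and receptors upstream of hepatocyte secretion and of the acute phase, all were tested in liver. Of these, 3 rose (2.51% of all genes) and 0 fell (16.9% of all genes). Hnf4a, the main regulator of hepatocyte genes, rose from 112 and 97.5 to 145 and 158 FPKM (0.53, SE 0.11, adjusted p = 0.0355, limma). Il1r1, the interleukin-1 receptor, rose from 5.45 and 4.75 to 10.2 and 11.3 FPKM (0.94, adjusted p = 0.0147, limma), and Socs3, a feedback inhibitor of IL-6 signalling, from 3.12 and 3.03 to 4.41 and 4.60 (0.43, adjusted p = 0.0369, limma).

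Subcutaneous fat held a different subset of the cascades. Of the 37 hepatocyte-made members 27 were below 1 FPKM in both WT fat libraries, and 10 of these were at 0 in both. The 10 that exceeded 1 FPKM were C1ra, C2, C4b, C3, Cfb, C6, C8g, Vtn, F7 and Pros1. The most abundant member in WT fat was C4b (382 and 352 FPKM), at about its level in WT liver (351 and 324 FPKM). C1qa, C1qb and C1qc were at 182 to 296 FPKM in WT fat, above the 35.3 to 67.0 FPKM of WT liver. In fat only these 10 genes and the 4 macrophage-made ones passed the filter, so most clotting factors were not tested there.

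In MKRN1-null fat 0 of these 14 members passed the adjusted threshold, as did 0 of all 12164 genes (0%), and 0 of the 14 met the study thresholds, which 0.707% of all genes passed upward and 5.36% downward (limma). No member had an unadjusted p below 0.05, as 785 of all genes did. By the permutation p computed here on FPKM with Stouffer's method, 1 member was higher at the study's limits (2.85% of all genes). By it 3 members were lower (13.2% of all genes). Both MKRN1-null libraries lay above both WT libraries for 1 member (9.03% of all genes) and below for 5 (36.1% of all genes). The median log2 difference was −0.35 over the 10 hepatocyte-made and −0.75 over the 4 macrophage-made members, where that of all genes was −0.20. Without MKRN1-null fat 2 these medians were −0.036 and −0.17, and that of all genes was −0.041.

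**Figure D5:**
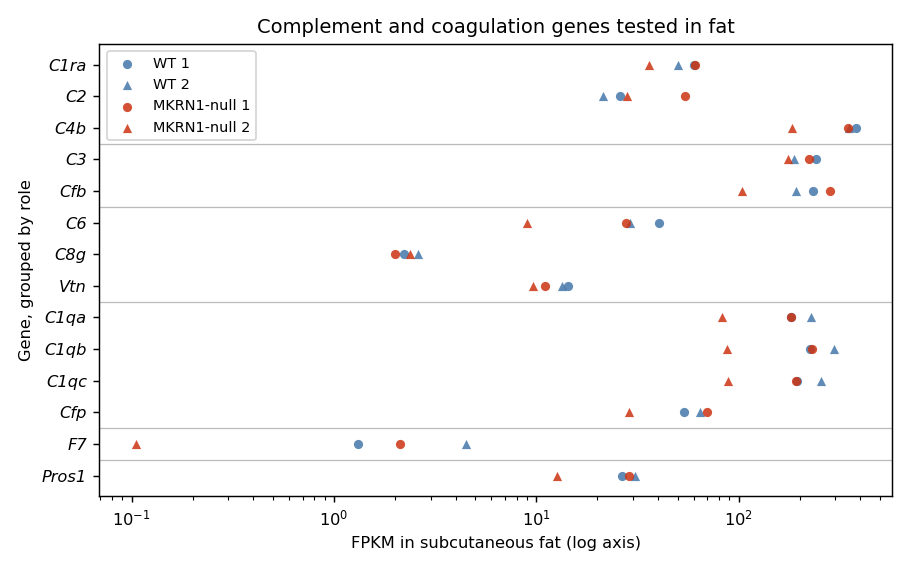
FPKM in subcutaneous fat on a log axis (horizontal) of the 14 genes that passed the filter there, grouped by role (vertical), with WT libraries in blue, MKRN1-null libraries in red, circles for library 1 and triangles for library 2. For C1qa, C1qb, C1qc, C4b, Cfb, Cfp and Pros1 the red triangle, the library with muscle transcripts, is far to the left while the red circle lies near or among the blue points.

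The lower C1q values of MKRN1-null fat lay mainly in MKRN1-null fat 2. C1qb was at 224 and 296 FPKM in WT fat, 229 in MKRN1-null fat 1 and 87.4 in MKRN1-null fat 2. Its difference was −0.86 (SE 0.54) with both libraries, −0.17 without MKRN1-null fat 2 and −1.55 without MKRN1-null fat 1. C1qa was at 182 and 228 against 181 and 82.6 FPKM, and C1qc at 194 and 256 against 191 and 88.7, with differences of −0.17 and −0.22 without MKRN1-null fat 2. Cfp was at 53.8 and 64.2 against 69.8 and 28.8 FPKM, and its difference turned from −0.38 to 0.24 without MKRN1-null fat 2. Without that library 0 members passed the adjusted threshold, and without MKRN1-null fat 1 10 members fell, where 5213 of all genes fell. The summed macrophage markers were at 878 and 1327 FPKM in WT, 1027 in MKRN1-null fat 1 and 302 in MKRN1-null fat 2, and their part in the C1q values was not tested.

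Among the hepatocyte-made members, C4b, Cfb and Pros1 were also lowest in MKRN1-null fat 2. C4b was at 348 FPKM in MKRN1-null fat 1 and 183 in MKRN1-null fat 2, Cfb at 235 and 193 in WT against 285 and 104, and Pros1 at 26.6 and 30.6 against 28.6 and 12.6. C1ra was at 60.5 and 50.0 against 61.0 and 36.1 FPKM, and C3 at 241 and 188 against 223 and 176. C2 was the 1 member above both WT libraries in both MKRN1-null libraries, at 25.96 and 21.3 against 54.0 and 27.9 FPKM. Its difference was 0.70 (SE 0.38, adjusted p = 0.68, limma), and 1.17 without MKRN1-null fat 2 (adjusted p = 0.174, limma), a value that rests on 1 MKRN1-null library, with the spread taken from the WT pair. C8g was at 2.22 and 2.61 against 2.01 and 2.38 FPKM, and F7 at 1.31 and 4.48 against 2.11 and 0.105.

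C6 and Vtn were the members with opposite order in the 2 tissues. C6 was at 40.5 and 29.0 FPKM in WT fat and 27.6 and 9.03 in MKRN1-null fat, below both WT libraries, where in liver both MKRN1-null libraries lay above. Vtn was at 14.3 and 13.4 against 10.99 and 9.65 FPKM in fat. Without MKRN1-null fat 2 the differences in fat were −0.30 for C6 and −0.31 for Vtn. The interaction of tissue and genotype was −2.13 for C6 (SE 0.92, adjusted p = 0.65, limma) and −0.69 for Vtn (SE 0.21, adjusted p = 0.542, limma). Of the 14 members tested in both tissues 0 passed, as did 0 of 9917 genes (0%), and at an unadjusted p below 0.05 Vtn alone did, as did 766 genes. Without MKRN1-null fat 1, which leaves the library with muscle transcripts as the only MKRN1-null fat library, 7 members passed the interaction test, as did 2647 of all genes (26.7%).

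The 27 hepatocyte-made members that were nearly absent from fat summed to 2.53 and 2.95 FPKM in WT fat, 3.59 in MKRN1-null fat 1 and 4.26 in MKRN1-null fat 2. In MKRN1-null fat 2, 4 of the 27 were at 0, against 11 to 14 in the other fat libraries, and 14 of them had their highest fat value there. Fgb was at 0.647 FPKM in that library and at 0 in the other 3. Alb, the defining hepatocyte transcript, was at 16.5 FPKM there against 2.77 to 8.96 in the others.

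Among other genes of the pathways in fat, none passed the adjusted threshold, and 8 with groups that do not overlap met the study thresholds. Over all genes tested in fat, 0.707% met these thresholds upward and 5.36% downward. Of 13 plasma components and lectins of complement 2 were higher and 1 lower, and of 11 receptors and membrane regulators 2 were lower. Of 16 vessel wall, fibrinolysis and receptor genes 2 were higher and 1 lower. None of 6 plasma components of coagulation or 5 genes of the vitamin K cycle and factor secretion met them. Cfd, encoding the alternative pathway protease adipsin (factor D), was at 1231 and 1271 FPKM in WT against 5077 and 5483 in MKRN1-null fat (2.08, SE 0.42, adjusted p = 0.68, limma). C7, a terminal component, was at 19.2 and 11.4 against 45.9 and 27.5 FPKM (1.21, SE 0.39). C5ar1, the receptor of the C5a fragment on myeloid cells, was at 17.6 and 20.9 against 2.48 and 5.42 FPKM (−2.10, SE 0.35), and Cd93, a surface protein of endothelial and myeloid cells, at 15.8 and 21.5 against 10.4 and 4.43 (−1.31). Of 3 neutrophil markers tested in fat 2 were lower at the study thresholds, with sums over the list of 45.8 and 41.5 against 24.1 and 7.39 FPKM. Of 6 endothelial markers 4 were, with sums of 189 and 249 against 130 and 68.95. Their part in the values of C5ar1 and Cd93 was not tested. C4a, with the reservation on its copy C4b, was at 9.47 and 16.8 against 6.07 and 1.31 FPKM (−1.76).

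On the coagulation side, Procr, the endothelial receptor of protein C, was at 20.3 and 19.4 against 34.8 and 28.0 FPKM (0.63), and Serpine2 at 52.0 and 48.0 against 77.1 and 79.4 (0.64). F2r was at 8.14 and 8.03 against 5.33 and 2.10 FPKM (−1.04). Serpine2 and F2r thus had the same sign in fat as in liver, as did Cd93 (−0.72 in liver) and Cfd (0.37 in liver, where its groups overlap). C4a had the opposite sign in liver (0.92), and its interaction did not pass (adjusted p = 0.534, limma). C7, C5ar1 and Procr were not tested in liver. Without MKRN1-null fat 2 the 8 differences kept their sign, at 2.02 for Cfd, 1.57 for C7, −2.54 for C5ar1, −0.77 for Cd93, −0.95 for C4a, 0.78 for Procr, 0.62 for Serpine2 and −0.52 for F2r, the last below the study's limit of size. F13a1, the catalytic subunit of factor XIII made by myeloid cells, was at 45.0 and 48.0 against 56.9 and 24.1 FPKM, where it was below 1 FPKM in every liver.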

How the data were processed

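Poly(A) RNA libraries (Illumina TruSeq) of liver and subcutaneous fat were used, 2 per genotype and tissue. The authors deposited 1 transcript table per library with FPKM, TPM and coverage, scaled to library depth. The submitters' processing notes name HISAT2, SAMtools and StringTie on mm10, and the file headers give StringTie 1.3.3b, whereas the paper's methods describe other tools, so the values here are those of the deposited tables and not of that procedure. They are not counts, and count tests were not used. Aligned bases, computed as coverage over FPKM, were 5.72 to 9.24 gigabases per library, which limits the precision of scarce transcripts.

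Transcript FPKM was added up per gene for 24532 genes (24462 with a symbol). Testing in a tissue required an FPKM of 1 or more in 2 or more of its 4 libraries. limma 3.58.1 in R 4.3.3 (lmFit, eBayes with trend) was fitted to log2(FPKM + 1) in each tissue, and the Benjamini-Hochberg method adjusted p over all genes tested. A fold change on this scale understates that of low genes. The interaction of tissue and genotype was fitted over all 8 libraries as independent samples, although titles may tie a liver and a fat library to 1 mouse (a fit with that block is an alternative). The procedure was tested on simulated data without a shift of all genes and with planted changes larger than most of those called among the members. That test thus does not show how the procedure performs under such a shift or at smaller differences. Python 3.11.15, pandas 2.3.3 and matplotlib 3.10.9 made the tables and figures.

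The members and gene lists were chosen with earlier results of these data known, so lists are described by counts and medians and carry no test. All 41 members are accounted for. Of other pathway genes, the up to 8 largest differences per tissue past the threshold (study thresholds in fat), with groups that do not overlap, are named, with the close copies C4a, C1rb and Kng2, with F8 and F13a1, and with upstream genes that passed in liver. Markers are named where they moved with a result. Of 10 hepatocyte markers 9 were found by symbol. The alternatives were a pseudocount of 0.1, TPM, the filter removed or set to 5 FPKM, median-of-ratios and quantile scaling, and no trend. Further ones were all 8 libraries in 1 fit, the replicate number as a block, and leaving out each library. The last was a permutation p by Stouffer's method, modelled on the study's but computed on log2(FPKM + 1). One gene that this rule names is not reported here.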

Additional observations from a re-analysis of the deposited data

How the results depend on the processing

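Counts of members were sensitive to the scaling and to single libraries. In liver the 7 rises became 17 with median-of-ratios scaling and 1 with all 8 libraries in 1 fit, and ranged from 0 to 6 when a library was left out. The 2 falls became 1 with no filter and 0 with median-of-ratios scaling, quantile normalization or all 8 libraries in 1 fit, and ranged from 0 to 3. At the study thresholds the 4 rises became 13 with median-of-ratios scaling (3 to 5 without a library), and the 3 falls became 1 with all 8 libraries in 1 fit (2 to 4 without a library). The median of the hepatocyte-made members, 0.24, became 0.18 with TPM, 0.51 with median-of-ratios scaling and 0.16 with quantile normalization, and was 0.16 to 0.29 without a library, while that of the macrophage-made members was −1.07 to −0.49. The cause of these shifts was not tested. Over all genes the adjusted calls in liver went from 272 rises and 1834 falls to 565 and 757 with median-of-ratios scaling. With all 8 libraries in 1 fit they were 63 and 164. At the study thresholds the 244 rises and 1448 falls of all genes became 505 and 802 with median-of-ratios scaling. With all 8 libraries in 1 fit these were 222 and 1003.

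In fat the hepatocyte-made median of −0.35 reversed to 0.02 with no filter, where members with scarce transcripts enter, and was −0.80 to −0.036 without a library, and that of the macrophage-made members was −1.30 to −0.17. Rises at the study thresholds were 1 with median-of-ratios scaling, quantile normalization and Stouffer's method, and 0 to 1 without a library. Falls were 3 with Stouffer's method and 0 to 10 without a library, at the adjusted threshold also 0 to 10. Interactions ranged from 0 to 7, the 7 without MKRN1-null fat 1. Leaving out a library leaves 1 sample in its group, assumed to vary like the others.

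Libraries of the 2 genotypes share replicate numbers, but the labels tie them to no shared animal, litter or day, and the deviations of same-numbered libraries from their group means correlated at 0.007 in liver and 0.113 in fat. With this replicate block 5 members rose and 2 fell in liver, where 235 of all genes rose and 1258 fell, and in fat 2 members (C6 and F7) were lower at the study thresholds, where 319 of all genes were higher and 1119 lower. The titles give liver and fat libraries of a genotype shared numbers, and the deviations of these correlated at 0.08 in WT and 0.092 in MKRN1-null. The interaction with that number within genotype as the block, as for 1 mouse giving both tissues, gave 0 members and 0 of 9917 genes (651 at an unadjusted p below 0.05).

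For single genes in liver, 330 of 369 values under other settings kept their direction and side of the threshold, 23 lost the call and 16 gained it, and 0 called values reversed. Uncalled values changed sign in 14 of them. Without 1 library, 136 of 164 liver values kept their call, 25 lost it and 3 gained it. In fat all 124 values under other settings kept their side, and without 1 library 10 of 56 gained a call, each without MKRN1-null fat 1. The depth of a library could not be varied, and 2 libraries a group leave the spread of each gene poorly known.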
